A study of Sus scrofa with 50 samples.

Results

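Hearts of 2 types of Korean minipig, labelled ET-type and L-type, were compared gene by gene. The heart libraries were chosen by their tissue and type labels, and they number 10 of the 50 libraries in the series, 5 from ET-type and 5 from L-type animals. Each of the 10 animals gave 1 heart library from total RNA, prepared as a stranded poly(A) mRNA library, and also 1 library each of kidney, liver, lung and spleen. The labels name no treatment and give neither age, sex, heart chamber nor what ET and L stand for. Expression was in TPM, a transcript's length-corrected share of a library scaled to a total of 1000000, over a transcriptome assembled from the reads. TPM were summed over all transcripts with the same best Swiss-Prot match. Transcripts matched to protein entries of the mitochondrial genome were left out and the rest rescaled. Genes are therefore given by their Swiss-Prot entry names, and values per animal are listed in the order S0235, S0242, S0276, S0309 and S0326 for ET-type hearts and S0349, S0355, S0377, S0384 and S0385 for L-type hearts.

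The ventricular wall is built of cardiomyocytes, whose sarcomeres of myosin, actin and their regulators shorten with each beat, and of fibroblasts, endothelial cells, pericytes and resident macrophages between them. Cardiomyocytes are packed with mitochondria and in adult life draw most of their ATP from the beta-oxidation of fatty acids, with glucose, lactate and ketone bodies as further fuels. Fibroblasts lay down the collagen and proteoglycan matrix that ties the muscle cells together, and capillary endothelium lies close to every muscle cell.

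The label of heart was borne out by its muscle markers. MLRV, the ventricular myosin regulatory light chain, lay between 20270 and 80156 TPM in the 10 hearts and did not exceed 65.1 TPM in any of the 40 libraries of other tissues. Cardiac troponin T, TNNT2, ranged over 5348 to 13863 TPM in hearts, against at most 22.6 TPM elsewhere. Cardiac myosin-binding protein C, MYPC3, ranged over 2129.7 to 3422 TPM against at most 7.96 TPM. Vimentin, VIME, the intermediate filament of mesenchymal and endothelial cells, spanned 167 to 1443 TPM in hearts and 13.8 to 1373 TPM in the other tissues, so it does not set the heart apart. Among the kidney libraries 1 went against its label. Markers of liver, lung and spleen are not given here. The kidney library of ET-type S0235 had 0.191 TPM of uromodulin, UROM, and 0.0102 TPM of aquaporin 2, AQP2, against 412 to 6019.6 and 187 to 1033 TPM in the other 9 kidneys. It had 590.4 TPM of the T cell antigen CD3E, against at most 17.2 TPM in the other 9 kidneys. These markers were chosen after their values were seen, and results that rest on kidney are given without it as well.

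Before any rescaling, protein-coding transcripts of the mitochondrial genome took up, as a share of all TPM, 34.1, 32.8, 45.5, 47.1 and 43.5% in the ET-type hearts, against 36.4, 29.1, 39.6, 32.9 and 32.8% in the L-type hearts. The groups overlapped, and the means of 40.6% ± 6.67 in ET-type and 34.1% ± 3.97 in L-type hearts (SD, n = 5 each) gave p = 0.103 in an exact two-sided permutation test. The number of entries reaching a threshold was counted on the rescaled TPM. More Swiss-Prot entries reached 1 TPM in ET-type hearts, with 11926, 11708, 12073, 12253 and 12345 in the ET-type hearts, against 11700, 11662, 11405, 11537 and 11468 in the L-type hearts. The lowest ET-type heart lay just above the highest L-type heart, and the exact two-sided permutation p of 0.00794 is the smallest that 5 against 5 animals can give (0.0238 adjusted over the 3 measures of this kind). At 0.5 TPM the groups also stayed apart, but at 5 TPM they overlapped, with 8633 entries in ET-type S0242 and 8712 in L-type S0349. The exact two-sided permutation p at 5 TPM was 0.0397. On the rescaled TPM the median log2 difference over all genes tested was 0.23, and this count was not repeated under another scaling. Haemoglobin alpha and beta together took, as a share of all TPM, 0.0328, 0.0128, 0.115, 0.0337 and 0.0734% in the ET-type hearts, against 0.00659, 0.0111, 0.00230, 0.0133 and 0.00132% in the L-type hearts (exact two-sided permutation p = 0.0159, 0.0238 adjusted). The read depth of the libraries is unknown, since only TPM were used here, and no counting interval can be given.

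Few genes passed the test across all genes, and CGNL1 was the only passing gene with a known protein. Of 24202 genes that averaged 1 TPM or more over the 10 hearts, 4 passed limma at an adjusted p below 0.05 (0.0165%), 3 higher and 1 lower in ET-type hearts. Without adjustment 5713 genes (23.6%) had p below 0.05. CGNL1, cingulin-like protein 1 of tight and adherens junctions (paracingulin), rose in ET-type hearts. It had 12.7, 11.4, 13.2, 17.7 and 16.7 TPM in the ET-type hearts, against 6.04, 5.13, 4.66, 4.59 and 4.04 TPM in the L-type hearts. The lowest ET-type value was well above the highest L-type value, and the log2 difference of 1.37 ± 0.18 (SE, n = 5 each, adjusted p = 0.0472) is a 2.59-fold rise on the TPM + 1 scale. The call ended when any 1 animal other than ET-type S0242 or L-type S0349 was left out (adjusted p up to 0.174) and when all tissues were fitted with the animal as a block (adjusted p = 0.0683).

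The other 3 passing genes were assembled transcripts with no Swiss-Prot match. NODE_95281 had 3.05, 1.64, 3.40, 3.48 and 3.44 TPM in the ET-type hearts, against 0, 0, 0.137, 0 and 0 TPM in the L-type hearts, a log2 difference of 1.94 ± 0.21 (adjusted p = 0.0173). It was also higher in every ET-type kidney, with 8.52 to 136 TPM in ET-type and 1.21 to 6.21 TPM in L-type kidneys (at most 47.0 TPM in ET-type kidneys without S0235), while in liver, lung and spleen the types overlapped and L-type S0385 was the highest L-type animal. NODE_5956 had 2.90, 3.33, 3.06, 4.83 and 3.47 TPM in the ET-type hearts, against 0.0889, 0.532, 0, 0.463 and 0.133 TPM in the L-type hearts, a difference of 1.87 ± 0.22 (adjusted p = 0.0173). In the 4 other tissues NODE_5956 also kept every ET-type animal above every L-type animal. It had 4.04 to 15.8 against 0.0485 to 0.963 TPM in kidney (at most 6.46 TPM in ET-type kidneys without S0235), 1.70 to 4.58 against 0 to 0.229 TPM in liver, 3.42 to 7.26 against 0 to 1.16 TPM in lung and 2.47 to 5.91 against 0.0825 to 0.810 TPM in spleen. The transcript that fell, NODE_218900, had 5.39, 0, 0, 0.545 and 0 TPM in the ET-type hearts, against 17.6, 34.8, 47.1, 49.3 and 81.0 TPM in the L-type hearts, a difference of -4.73 ± 0.54 (adjusted p = 0.0173). Within the ET-type it was listed at 0 in S0242, S0276 and S0326 and was present in S0235, the animal that also held 5.17 TPM of it in kidney, 9.45 TPM in lung and 4.07 TPM in spleen, where the same 3 animals were again at 0. Liver differed in this, with 1.01 TPM in S0242 and 1.18 TPM in S0276 beside 2.62 TPM in S0235, and 0 in S0326. L-type animals had 4.45 to 14.8 TPM of NODE_218900 in kidney and 6.25 to 14.7 TPM in liver. They had 2.86 to 6.58 TPM in lung and 1.78 to 7.32 TPM in spleen. Outside heart the types stood apart in liver alone. The Swiss-Prot matches give no gene for these 3 transcripts. The full names of NODE_95281, NODE_5956 and NODE_218900 begin with Lung.ET, Lymph.ET and Lung.L, in that order. Each was thus higher in the type that its own name carries. Whether sequence or assembly differences between the types play a part in these values was not tested. Each of their calls ended without ET-type S0276 or S0326, or without L-type S0355, S0377, S0384 or S0385 (adjusted p up to 0.0905).

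The low count of passing genes went with many genes just short of the threshold. Fitted without the unmatched transcripts, 1369 of 11995 Swiss-Prot entries (11.4%) had an adjusted p below 0.05, 1151 higher and 218 lower. Leaving out 1 animal took that count anywhere between 0 (without ET-type S0326, or without L-type S0377, S0384 or S0385) and 4121 (without ET-type S0242). The split also rests on scaling. On the rescaled TPM 84.1% of these entries were higher in ET-type hearts, while under median-ratio scaling 570 entries passed (4.77% of 11942) and 66.1% of them were higher. The median log2 difference over all genes tested was 0.23 as scaled here and -0.03 under median-ratio scaling, so a difference of 0 here lies below the middle of the genes. Every gene and list below is therefore given as values, with its difference under median-ratio scaling where that changes its direction. Separation of the groups is used as a plain description: in 878 entries (7.32%) all 5 ET-type hearts lay above all 5 L-type hearts, and in 176 (1.47%) all 5 lay below. Counts of separated list members below are to be read beside these shares. In bulk heart, fewer cells of a type and less RNA per cell cannot be told apart.

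**Figure D1:**
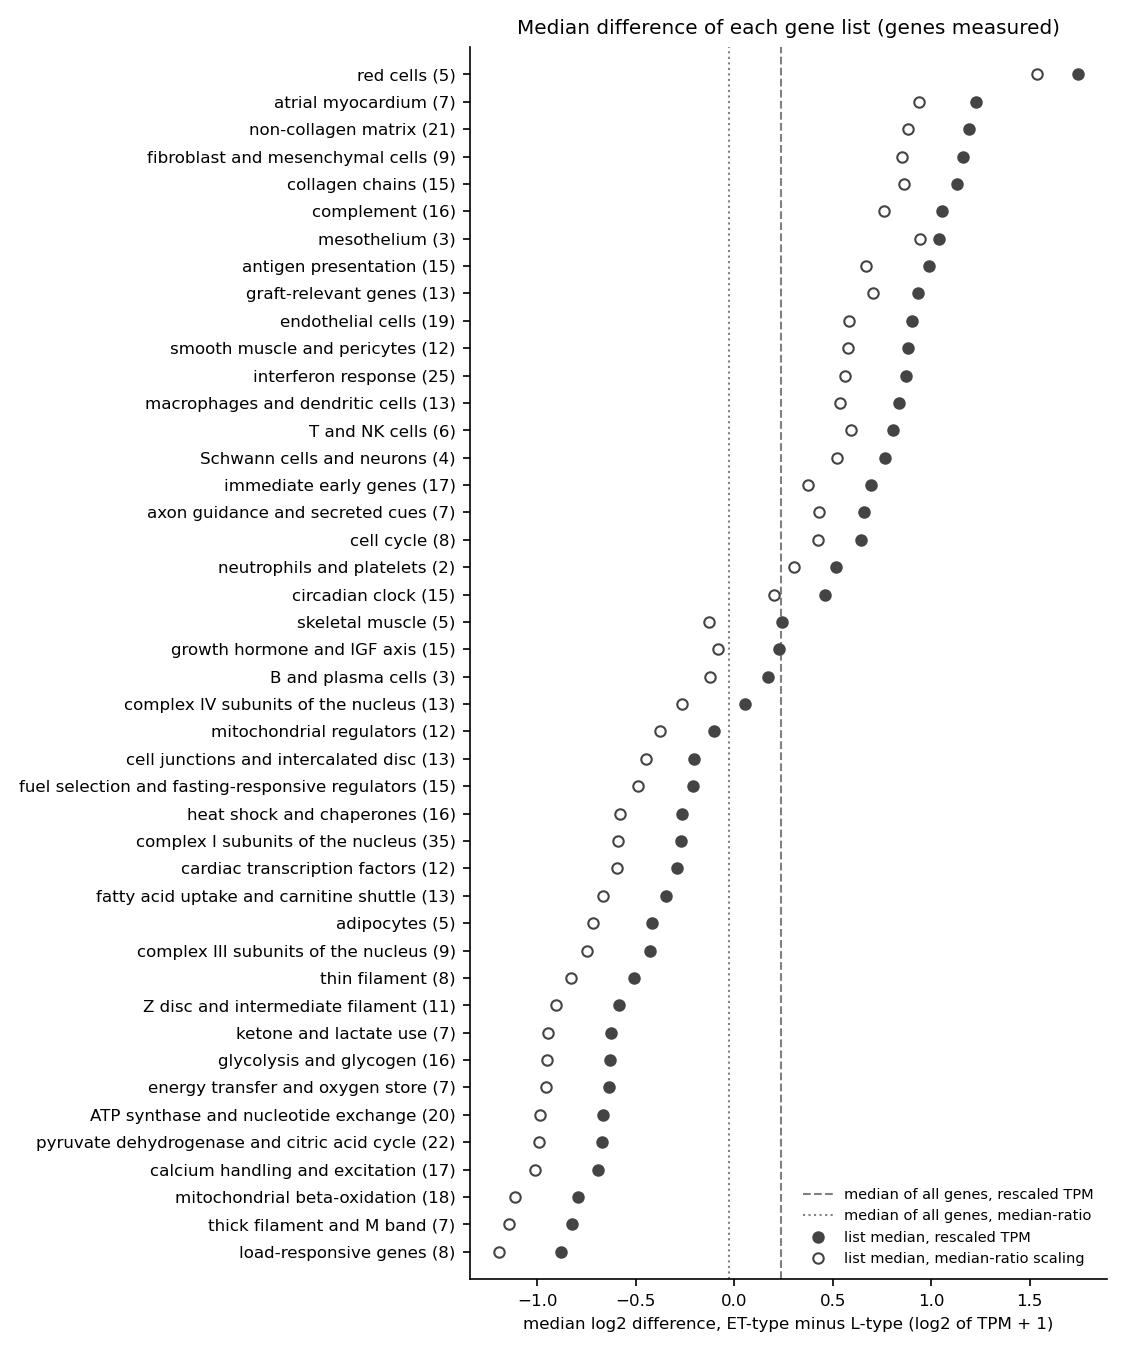
Median log2 difference of each gene list, ET-type minus L-type hearts (horizontal axis, log2 of TPM + 1), on the rescaled TPM (filled points) and under median-ratio scaling (open points). Dashed and dotted lines mark the median over all genes tested, 0.23 and -0.03 in the same order. Lists of sarcomere, fuel and respiratory chain genes lie to the left of the lines, and lists of matrix, vessel and antigen presentation genes to the right.

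On the higher side CGNL1 alone among the entries passed, and those that came next by p had a range of known roles. VIME had 734, 550.3, 704, 835 and 1443 TPM in the ET-type hearts, against 314, 261, 233, 221 and 167 TPM in the L-type hearts, with no overlap and a difference of 1.78 ± 0.25 (adjusted p = 0.0592). FMOD, fibromodulin, a collagen-binding proteoglycan, had 19.9, 16.8, 10.6, 24.3 and 35.2 TPM in the ET-type hearts, against 5.49, 6.64, 1.81, 3.11 and 3.23 TPM in the L-type hearts (2.14 ± 0.34, adjusted p = 0.0812). SLIT2, a secreted guidance cue for axons and vessels, had 7.71, 3.69, 5.59, 7.33 and 9.12 TPM in the ET-type hearts, against 1.87, 1.89, 1.36, 0.769 and 1.25 TPM in the L-type hearts (1.64 ± 0.25, adjusted p = 0.0747). In all 3 genes the ET-type hearts stood apart from the L-type hearts, and S0326 was the highest ET-type heart. APOD, the lipid carrier apolipoprotein D, had 267, 141, 387, 192 and 258 TPM in the ET-type hearts, against 106, 78.0, 97.0, 69.6 and 67.2 TPM in the L-type hearts (1.51 ± 0.25, adjusted p = 0.0812), and there S0276 was highest. A further 4 entries of this rank, each without overlap, were the neurotrophic co-receptor GFRA3 at 1.27, the tubulin chain TBB6 at 1.21, the scavenger receptor SCAR3 at 1.15 and ferric-chelate reductase FRRS1 at 1.76, all with an adjusted p of 0.0812.

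Adjusted p-values repeat because the adjustment gives neighbours in rank a common value. On the lower side none of the 10 entries with the smallest p passed (smallest adjusted p = 0.0812). DHRS4, a peroxisomal and mitochondrial short-chain dehydrogenase, had 649.8, 248, 277, 104 and 84.9 TPM in the ET-type hearts, against 1356, 1038, 1184, 952 and 1066 TPM in the L-type hearts (-2.41 ± 0.46, adjusted p = 0.0812), the largest difference of the 10 entries of this rank. PAFA, which hydrolyses platelet-activating factor, had 107, 118, 111, 99.5 and 61.0 TPM in the ET-type hearts, against 183, 291, 291, 201 and 335 TPM in the L-type hearts (-1.38 ± 0.23, adjusted p = 0.0812). Neither gene overlapped between the types. The remaining 8 also kept every ET-type heart below every L-type heart: the beta-oxidation enzymes ACADV and ECHB, the muscle filament DESM and the potassium channel KCNJ3, described below, and the dynein chain DC1I1 at -0.96, the activin-binding FSTL3 at -0.92, the muscle LIM protein FHL1 at -0.88 and the ATP-gated channel P2RX5 at -0.91.

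**Figure D2:**
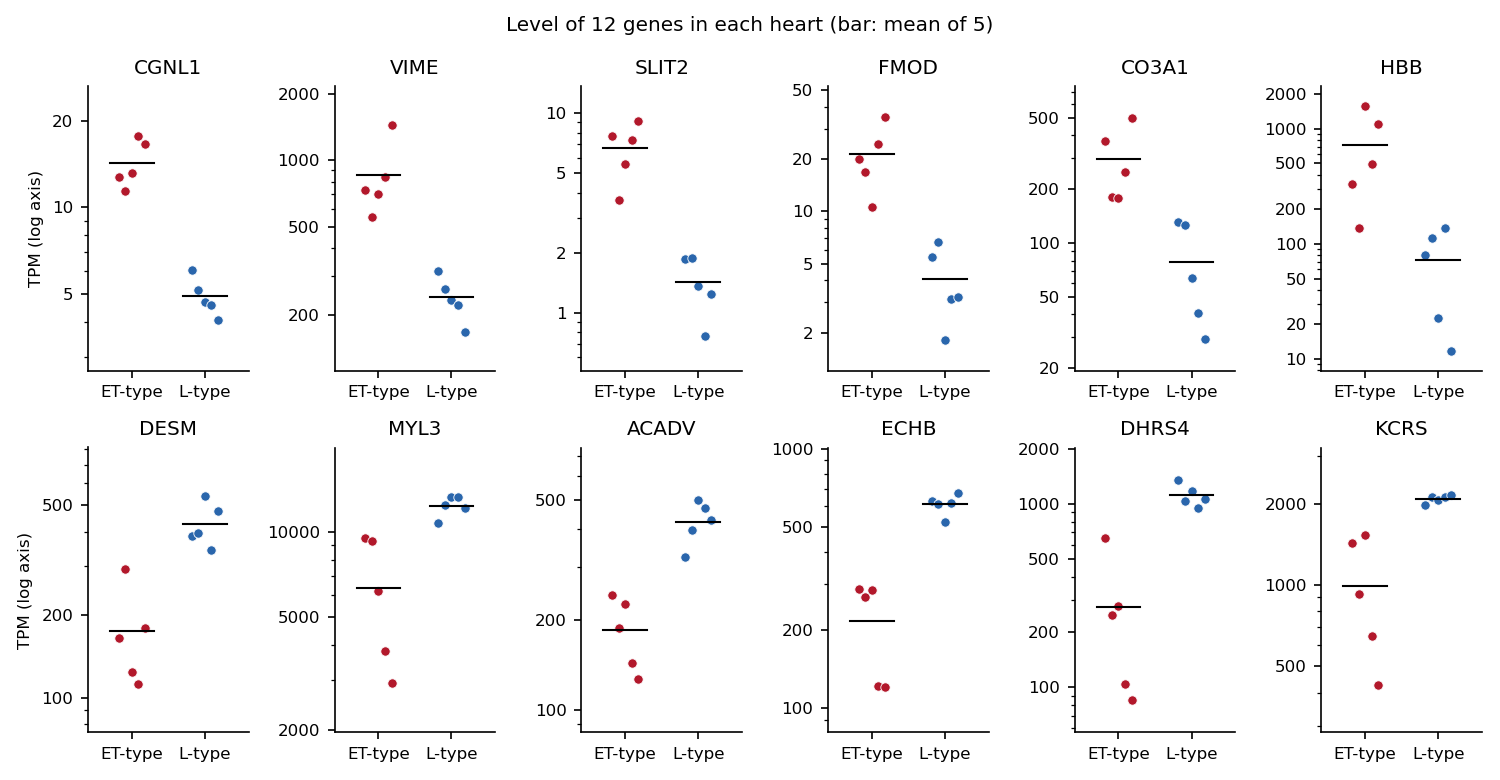
TPM of 12 genes in each heart (logarithmic vertical axis), ET-type animals on the left and L-type animals on the right of each panel, with a bar at the group mean. The upper row holds genes with higher values in ET-type hearts (CGNL1, VIME, SLIT2, FMOD, CO3A1 and HBB) and the lower row genes with lower values (DESM, MYL3, ACADV, ECHB, DHRS4 and KCRS), and in none of the 12 do the groups overlap.

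Sarcomere genes stood lower in ET-type hearts, in most cases with partly overlapping groups. The 7 thick filament and M band genes measured summed to 83622, 70386, 66613, 37684 and 28228 TPM in the ET-type hearts, against 100054, 86333, 103344, 91008 and 109032 TPM in the L-type hearts, so that the highest ET-type heart lay just under the lowest L-type heart. MYL3, the ventricular essential light chain, had 9532, 9339, 6212, 3812 and 2939 TPM in the ET-type hearts, against 10772, 12493, 13280.2, 13303 and 12229.6 TPM in the L-type hearts (-1.11 ± 0.32, adjusted p = 0.0966). The beta-myosin heavy chain MYH7 had 5360.3, 5307, 4406, 3081 and 2249.9 TPM in the ET-type hearts, against 5307, 5068, 8852, 7121 and 14353 TPM in the L-type hearts (-0.96 ± 0.33, adjusted p = 0.13). MLRV differed by -0.88 ± 0.33 (adjusted p = 0.15) and MYPC3 by -0.32 ± 0.16 (adjusted p = 0.237). The list median was a log2 difference of -0.82, against 0.23 over all genes, and MYL3 was the 1 member without overlap. Among all entries 1.47% were lower without overlap. Within the ET-type the sum was lowest in S0309 and S0326.

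Thin filament genes had a list median of -0.51 over 8 members, and 3 of the 8 lay above 0 as scaled here but none under median-ratio scaling. LMOD2, leiomodin, which sets actin filament length, had 68.9, 150.4, 98.9, 129.6 and 104 TPM in the ET-type hearts, against 143, 220.1, 212, 408 and 253 TPM in the L-type hearts (-1.12 ± 0.28, adjusted p = 0.0833), with overlap only between S0242 and the lowest L-type heart. TNNT2 had 10562, 11502, 10512, 7310.2 and 5348 TPM in the ET-type hearts, against 11970.4, 11924, 12034, 13863 and 11955 TPM in the L-type hearts (-0.50 ± 0.23, adjusted p = 0.208), a small gap without overlap. Of 11 Z disc and intermediate filament genes 10 lay below 0, with a median of -0.58. Of the 11, 3 were lower without overlap, against 1.47% of all entries. Desmin, DESM, which links the Z discs of neighbouring myofibrils, had 164, 292, 124, 112 and 178 TPM in the ET-type hearts, against 386, 395, 538, 344 and 475 TPM in the L-type hearts (-1.36 ± 0.25, adjusted p = 0.0812). Alpha-actinin-2, ACTN2, the Z disc cross-linker, had 670.4, 706, 602, 359.7 and 307 TPM in the ET-type hearts, against 762, 942, 1170, 906 and 1472 TPM in the L-type hearts (-1.03 ± 0.27) and did not overlap. Telethonin, TELT, the titin cap, was without overlap too and differed by -0.71 ± 0.21 (adjusted p = 0.0983). MYOZ2, the Z disc protein calsarcin-1, differed by -0.89 ± 0.24 with overlap.

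Genes of atrial muscle did not lie on 1 side. The 7 measured had a median of 1.23, with 1 separated on each side. Among all entries 7.32% were higher and 1.47% lower without overlap. MYL4, the atrial and fetal essential light chain, had 14.6, 259.6, 13.1, 52.5 and 226 TPM in the ET-type hearts, against 9.31, 3.82, 17.8, 6.38 and 1.48 TPM in the L-type hearts (3.06 ± 0.87, adjusted p = 0.0948). S0242 and S0326 were far above every other heart, while S0235 and S0276 were within the L-type range. ANF, the natriuretic peptide made by atria and by loaded ventricles, had 82.3, 1707, 552, 292 and 1768 TPM in the ET-type hearts, against 261, 111, 134, 57.3 and 146 TPM in the L-type hearts (2.05 ± 0.76, adjusted p = 0.147). TNNI1, the slow skeletal and fetal cardiac troponin I, had 0.146, 33.1, 0.250, 2.28 and 50.3 TPM in the ET-type hearts, against 0.0405, 0.595, 2.04, 0.680 and 0.183 TPM in the L-type hearts (1.94 ± 1.01, adjusted p = 0.264). In all 3 genes S0242 and S0326 were the 2 highest hearts. Connexin 40, CXA5, of atrial muscle, conduction fibres and arterial endothelium, had 12.7, 17.8, 17.7, 16.1 and 25.3 TPM in the ET-type hearts, against 7.75, 9.08, 3.22, 8.83 and 7.49 TPM in the L-type hearts (1.23 ± 0.27, adjusted p = 0.0812). The atrial and venous regulator COUP-TF2, COT2, differed by 1.27 ± 0.34 (adjusted p = 0.0891). Against these, KCNJ3, a subunit of the acetylcholine-gated potassium channel, had 17.2, 17.5, 16.5, 17.7 and 13.1 TPM in the ET-type hearts, against 25.6, 28.9, 24.6, 31.4 and 31.6 TPM in the L-type hearts (-0.76 ± 0.15, adjusted p = 0.0812), lower in every ET-type heart. MLRA, the atrial regulatory light chain, differed by -0.09 ± 0.48 (adjusted p = 0.927). Which wall or chamber each piece came from is not in the labels, and its part in these values was not tested.

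Load-responsive genes were lower where they separated the types, with a median of -0.88. Of 8 measured, 2 were lower without overlap, against 1.47% of all entries. Another 2 of the 8 lay above 0, among them ANF at 2.05 ± 0.76, whose values are given above. ANKR1, the stretch-responsive cardiac ankyrin repeat protein, had 1552, 905, 1731, 1613 and 1342 TPM in the ET-type hearts, against 2861, 3676, 2109, 2392 and 3536 TPM in the L-type hearts (-1.03 ± 0.22, adjusted p = 0.0812). Skeletal alpha-actin, ACTS, which is re-expressed in loaded myocardium, had 3751, 3073, 2166, 939.7 and 1086 TPM in the ET-type hearts, against 3858, 4649.7, 7739.8, 5318 and 6543 TPM in the L-type hearts (-1.51 ± 0.38, adjusted p = 0.084). Neither overlapped between the types. The brain natriuretic peptide ANFB ranged over 1.87 to 101 TPM in ET-type hearts and 6.15 to 123 TPM in L-type hearts, with a wide spread in both types (-1.91 ± 1.08, adjusted p = 0.296).

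Calcium handling and excitation genes had a median of -0.69 over 17 members, of which 15 lay below 0, and in none did the groups separate. The repolarising potassium channel KCNQ1 had 9.83, 17.2, 7.94, 6.02 and 3.39 TPM in the ET-type hearts, against 12.7, 13.7, 35.7, 23.2 and 35.6 TPM in the L-type hearts (-1.38 ± 0.40, adjusted p = 0.0969). Differences were -0.71 ± 0.24 for the related channel KCNH2, -0.77 ± 0.28 for the beta-1 adrenergic receptor ADRB1 and -1.18 ± 0.45 for junctophilin-2, JPH2, which couples the surface membrane to calcium stores. The calcium pump AT2A2 differed by -0.74 ± 0.32 and the release channel RYR2 by -0.13 ± 0.26. Among 12 cardiac transcription factors the median was -0.29. NKX25 had 53.4, 64.6, 44.8, 21.6 and 23.6 TPM in the ET-type hearts, against 70.8, 78.2, 113, 107 and 94.9 TPM in the L-type hearts (-1.24 ± 0.30, adjusted p = 0.0833). HAND2 had 109, 86.0, 90.6, 112 and 56.9 TPM in the ET-type hearts, against 135, 139, 158, 254 and 162 TPM in the L-type hearts (-0.89 ± 0.23, adjusted p = 0.0842). Both were lower in all ET-type hearts, whereas MEF2C at 0.42 ± 0.18 and MEF2A at 0.44 ± 0.22 had positive differences with overlap.

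Enzymes of mitochondrial beta-oxidation were lower in ET-type hearts in the larger part of the list: 17 of 18 differences lay below 0 and 6 were without overlap, against 1.47% of all entries. Their summed level was 5001, 5184, 4225, 2361 and 2254 TPM in the ET-type hearts, against 5834, 5762, 6766, 6545 and 6550.3 TPM in the L-type hearts. No ET-type heart reached an L-type heart, and S0309 and S0326 were lowest. ACADV, which takes very long acyl chains through the first step, had 242.1, 188, 226, 143 and 127 TPM in the ET-type hearts, against 324, 399, 498, 469.9 and 428 TPM in the L-type hearts (-1.22 ± 0.21, adjusted p = 0.0812). ECHB, the thiolase subunit of the trifunctional protein, had 287, 267, 286, 122 and 121 TPM in the ET-type hearts, against 628, 614, 519.7, 618 and 673 TPM in the L-type hearts (-1.60 ± 0.27, adjusted p = 0.0812). Its partner ECHA, with the hydratase and dehydrogenase activities, had 444, 339, 436, 177 and 176 TPM in the ET-type hearts, against 592, 694, 669, 580.3 and 667 TPM in the L-type hearts (-1.14 ± 0.27, adjusted p = 0.0833). All 3 were without overlap. The isomerase ECI1 at -0.84 ± 0.20 and the short-chain dehydrogenase ACADS at -0.82 ± 0.22 separated as well, and the medium-chain dehydrogenase ACADM, at -1.30 ± 0.37, overlapped only just. The median was -0.79 and -1.11 under median-ratio scaling.

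The steps that bring fatty acids to the mitochondrion are the next list. Of 13 uptake and carnitine genes none was without overlap, and the median was -0.35. ACSL1, which activates fatty acids to acyl-CoA, had 128, 237, 112, 124 and 123 TPM in the ET-type hearts, against 218, 273, 263, 234 and 256 TPM in the L-type hearts (-0.83 ± 0.20, adjusted p = 0.0828), where only S0242 reached the L-type range. The matrix-facing steps followed with -1.19 ± 0.37 for carnitine acetyltransferase, CACP, -0.72 ± 0.24 for the carnitine carrier MCAT and -0.73 ± 0.26 for CPT2. The fatty acid binding protein FABPH differed by -0.88 ± 0.37 and the uptake receptor CD36 by 0.55 ± 0.26. Among 15 regulators of fuel choice the median was -0.21. Malonyl-CoA decarboxylase, DCMC, which relieves the block on fatty acid entry, had 25.0, 12.9, 26.3, 9.89 and 4.47 TPM in the ET-type hearts, against 31.6, 41.0, 44.3, 34.3 and 29.9 TPM in the L-type hearts (-1.37 ± 0.39, adjusted p = 0.0948) without overlap. PDK4, the fasting-induced kinase that shuts off pyruvate dehydrogenase, had 33.3, 47.3, 226, 29.2 and 50.3 TPM in the ET-type hearts, against 123, 328, 127, 818 and 99.8 TPM in the L-type hearts (-1.91 ± 0.65, adjusted p = 0.127). Its spread was wide in both types, with S0276 above 3 of the 5 L-type hearts. FOXO1, a fasting-responsive transcription factor, differed by 0.58 ± 0.19 without overlap, and by 0.29 under median-ratio scaling.

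Citric acid cycle and pyruvate dehydrogenase genes lay below 0 in 21 of 22 members, with a median of -0.67. The NADP-dependent isocitrate dehydrogenase of mitochondria, IDHP, had 639.7, 710.5, 418, 313 and 315 TPM in the ET-type hearts, against 746, 916, 988, 911 and 1073 TPM in the L-type hearts (-1.03 ± 0.25, adjusted p = 0.0826). IDH3A and IDH3G, subunits of the NAD-dependent enzyme, differed by -0.68 ± 0.17 and -0.74 ± 0.19, and all 3 were without overlap. Among all entries 1.47% were lower without overlap. Mitochondrial malate dehydrogenase, MDHM, had 648, 1064, 333, 207 and 238 TPM in the ET-type hearts, against 923, 1148, 1690, 1344 and 1739 TPM in the L-type hearts (-1.70 ± 0.41, adjusted p = 0.0833), overlapping through S0242 alone. The 1 member above 0 was ODPA, the catalytic alpha subunit of pyruvate dehydrogenase, at 0.27 ± 0.13 without overlap, and at -0.05 under median-ratio scaling, so its direction depends on the scaling.

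Respiratory chain subunits encoded in the nucleus lay on both sides of 0. The medians were -0.27 over 35 nuclear complex I subunits, -0.43 over 9 of complex III, 0.05 over 13 of complex IV (and -0.27 under median-ratio scaling) and -0.67 over 20 genes of ATP synthase and nucleotide exchange. In complex I, NDUS6 at -1.02 ± 0.24 and NDUAA at -0.89 ± 0.24 were lower without overlap, and NDUA7 was higher without overlap at 0.51 ± 0.15. Among all entries 1.47% were lower and 7.32% higher without overlap. In complex IV, COX5A had 917, 931, 638, 356 and 284 TPM in the ET-type hearts, against 1043, 1202, 1225, 1216 and 1149 TPM in the L-type hearts (-1.06 ± 0.31, adjusted p = 0.101), with the groups apart, while COX41, the larger subunit next to it, differed by 0.49 ± 0.18. The 7 genes of energy transfer and oxygen storage had a median of -0.64. Mitochondrial creatine kinase of muscle, KCRS, which hands ATP energy to creatine, had 1437, 924, 1530.2, 647 and 428 TPM in the ET-type hearts, against 1972, 2118, 2065, 2118 and 2153 TPM in the L-type hearts (-1.22 ± 0.31, adjusted p = 0.0842), also without overlap. The cytosolic muscle form KCRM differed by -1.09 ± 0.40 and myoglobin, MYG, the oxygen store, by -0.64 ± 0.33, both with overlap. None of 7 genes of ketone and lactate use separated the types, with a median of -0.63, -1.21 ± 0.41 for the ketone body dehydrogenase BDH and -1.11 ± 0.34 for SCOT1, which activates acetoacetate. Of 12 mitochondrial regulators, with a median of -0.10, none separated, and the nuclear receptor ERR1 was at -0.59 ± 0.20.

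Glycolytic genes were lower in the larger part as well. Of 16 members 13 lay below 0, with a median of -0.63, among them HXK1, the hexokinase of the first step, at -1.07 ± 0.30 and the pyruvate kinase KPYM at -0.80 ± 0.22. Alpha-enolase, ENOA, the form of most tissues, had 131, 104, 136, 159 and 209.6 TPM in the ET-type hearts, against 86.4, 88.2, 88.9, 85.0 and 81.2 TPM in the L-type hearts (0.74 ± 0.18, adjusted p = 0.0833), the 1 member higher without overlap. The muscle form ENOB differed by -0.92 ± 0.38. Within each library, where scaling cancels, ENOA made up, as a share of both enolases, 4.84, 3.06, 8.50, 15.7 and 22.7% in the ET-type hearts, against 3.42, 3.02, 2.57, 2.94 and 2.80% in the L-type hearts. The ET-type hearts spread widely and S0242 lay within the L-type range. The same share was 4.68% ± 3.45 in ET-type hearts and 1.52% ± 0.375 in L-type hearts (SD, n = 5 each) for ADT2, the adenine nucleotide carrier of most tissues, over ADT1 and ADT2. It was 7.37% ± 4.38 in ET-type hearts and 2.85% ± 0.441 in L-type hearts for CX6A1, the cytochrome oxidase subunit of most tissues, over CX6A1 and CX6A2. In both, all ET-type hearts were above all L-type hearts, and S0309 and S0326 were highest. For lactate dehydrogenase the share of LDHA was 2.40% ± 1.49 in ET-type hearts and 0.793% ± 0.246 in L-type hearts, with overlap. The other pairs did not all run this way. COX8A took 4.76% ± 0.825 in ET-type hearts and 8.78% ± 2.19 in L-type hearts of COX8A and COX8B, lower in every ET-type heart. CX7A2 took 44.5% ± 5.31 in ET-type hearts and 46.6% ± 1.22 in L-type hearts of CX7A1 and CX7A2, and PGAM1 took 58.4% ± 7.92 in ET-type hearts and 55.9% ± 3.89 in L-type hearts of PGAM1 and PGAM2. CPT1A took 7.38% ± 2.43 in ET-type hearts and 4.44% ± 1.80 in L-type hearts of CPT1A and CPT1B, and HXK1 took 96.7% ± 1.81 in ET-type hearts and 99.1% ± 0.428 in L-type hearts of HXK1 and HXK2. The brain creatine kinase KCRB took 1.30% ± 1.496 in ET-type hearts and 0.430% ± 0.163 in L-type hearts of KCRB and KCRM. The ET-type mean was thus higher for PGAM1, CPT1A and KCRB and lower for CX7A2 and HXK1, all with overlap. The 11 pairs examined were chosen after the values were seen, so these shares carry no test.

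**Figure D3:**
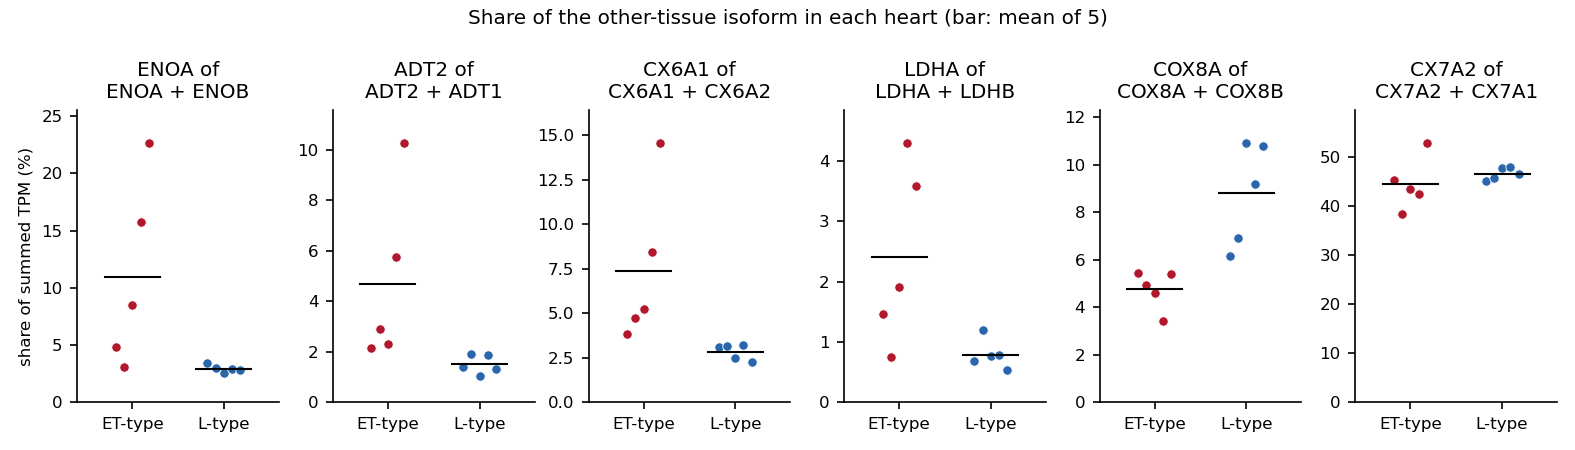
Share of the form found in most tissues in each isoform pair (percent of the pair's summed TPM, vertical axis), 1 point per heart, ET-type on the left and L-type on the right of each panel, bars at the group means. The shares of ADT2, CX6A1 and, with overlap, ENOA and LDHA run higher in ET-type hearts, that of COX8A runs lower, and that of CX7A2 overlaps.

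Collagen chains lay higher in ET-type hearts, with 15 of 15 differences above 0, 5 chains without overlap, against 7.32% of all entries, and a median of 1.13. Under median-ratio scaling 2 of the 15 turned below 0, and the median was 0.86. CO3A1, the chain of type III collagen, had 374, 180.1, 178, 249 and 503 TPM in the ET-type hearts, against 131, 126, 63.6, 40.7 and 29.0 TPM in the L-type hearts (2.03 ± 0.44, adjusted p = 0.0812). CO1A2, of type I collagen, had 179.7, 113, 88.0, 137 and 240.4 TPM in the ET-type hearts, against 68.4, 69.6, 39.2, 19.6 and 19.8 TPM in the L-type hearts (1.90 ± 0.40, adjusted p = 0.0812). In both the L-type hearts S0349 and S0355 were the closest to the ET-type range. Type V chain CO5A2 at 1.51 ± 0.31, type XIV chain COEA1 at 1.53 ± 0.33 and type XV chain COFA1 at 1.56 ± 0.34 also separated the types.

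Non-collagen matrix genes agreed in direction in all 21 members under both scalings, with a median of 1.19. Of the 21, 8 were higher without overlap, against 7.32% of all entries. POSTN, periostin, a matricellular protein of activated fibroblasts, had 23.9, 17.6, 9.57, 7.53 and 43.2 TPM in the ET-type hearts, against 7.35, 6.40, 2.18, 1.53 and 1.06 TPM in the L-type hearts (2.16 ± 0.51, adjusted p = 0.082). Fibronectin, FINC, had 34.3, 25.2, 22.8, 31.4 and 56.0 TPM in the ET-type hearts, against 9.84, 17.9, 9.17, 8.17 and 7.45 TPM in the L-type hearts (1.60 ± 0.28, adjusted p = 0.0812). TIMP1, an inhibitor of matrix metalloproteinases, had 49.1, 39.5, 65.1, 104 and 105 TPM in the ET-type hearts, against 27.4, 28.8, 21.97, 19.4 and 17.6 TPM in the L-type hearts (1.53 ± 0.28, adjusted p = 0.0812). All 3 kept the types apart, and S0326 was the highest heart in each. SPARC, SPRC, a collagen-binding matricellular protein, differed by 1.58 ± 0.31, biglycan, PGS1, by 1.22 ± 0.25 and matrix Gla protein, MGP, by 1.79 ± 0.41, likewise without overlap.

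Markers of the cells around the muscle lay higher as well. Of 9 fibroblast and mesenchymal markers 8 lay above 0. The list summed to 644 to 1734 TPM in the ET-type hearts and 211 to 411 TPM in the L-type hearts, and had a median of 1.16. Besides VIME, the surface glycoprotein THY1 had 61.4, 22.9, 30.5, 24.3 and 58.9 TPM in the ET-type hearts, against 19.1, 16.7, 9.97, 4.93 and 4.90 TPM in the L-type hearts (1.80 ± 0.42, adjusted p = 0.0812) without overlap. TCF21, the transcription factor of cardiac fibroblasts, differed by 1.16 ± 0.32 and the fibroblast activation protein SEPR by 1.48 ± 0.35, both with overlap. All 19 endothelial markers lay above 0 under both scalings, with a median of 0.90 and sums of 563 to 2016 TPM in the ET-type hearts and 485 to 788 TPM in the L-type hearts. S0242, at the bottom of the ET-type range, was inside the L-type range. PECA1, the junctional adhesion molecule CD31, had 147, 114, 189, 278 and 243 TPM in the ET-type hearts, against 86.6, 106, 79.3, 108 and 96.7 TPM in the L-type hearts (0.96 ± 0.23, adjusted p = 0.0833). Endomucin, MUCEN, differed by 1.37 ± 0.30, both without overlap, and thrombomodulin, TRBM, by 1.48 ± 0.43 with overlap. Of the 19 endothelial markers 2 were higher without overlap, against 7.32% of all entries. Smooth muscle and pericyte markers had a median of 0.88 and sums of 1009.9 to 1714 TPM in the ET-type hearts and 687 to 963 TPM in the L-type hearts, which did not overlap. The pericyte gene RGS5 had 313, 249, 332, 527 and 519.8 TPM in the ET-type hearts, against 162, 195, 119, 164 and 135 TPM in the L-type hearts (1.28 ± 0.23, adjusted p = 0.0812) without overlap. Smooth muscle actin, ACTA, differed by 1.38 ± 0.32.

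Markers of red cells and macrophages had positive medians under both scalings, those of B and plasma cells did not, and their part in the differences above was not tested. Of 9 red cell genes listed 5 were measured, with a median of 1.75. Beta globin, HBB, had 334, 137, 1572, 493 and 1105 TPM in the ET-type hearts, against 80.4, 113, 22.8, 137 and 11.8 TPM in the L-type hearts (3.33 ± 0.77, adjusted p = 0.0812), with the lowest ET-type and the highest L-type heart nearly level. Alpha globin, HBA, differed by 2.75 ± 0.62. Macrophage and dendritic cell markers lay above 0 in all 13 members without any separation, with a median of 0.84, sums of 379 to 929 TPM in the ET-type hearts and 157 to 574 TPM in the L-type hearts and the microglial and macrophage gene AIF1 at 1.45 ± 0.44. For T and NK cells 6 of 13 markers reached the mean of 1 TPM, for B and plasma cells 3 of 9, and for neutrophils and platelets 2 of 10, with medians of 0.80, 0.17 (-0.13 under median-ratio scaling) and 0.52. T and NK cell markers summed to 20.3 to 46.7 TPM in the ET-type hearts and 16.3 to 32.3 TPM in the L-type hearts. B and plasma cell markers summed to 17.1 to 37.3 TPM in the ET-type hearts and 16.6 to 22.4 TPM in the L-type hearts, and those of neutrophils and platelets to 3.10 to 11.8 TPM in the ET-type hearts and 2.34 to 4.32 TPM in the L-type hearts. CD3Z, the zeta chain of the T cell receptor, was the 1 member of these 3 lists without overlap, with 5.81, 2.15, 2.42, 1.94 and 3.36 TPM in the ET-type hearts, against 1.06, 1.60, 1.53, 1.67 and 0.982 TPM in the L-type hearts (0.74 ± 0.26, adjusted p = 0.132). Among all entries 7.32% were higher without overlap, and 1 separated member says little about these 3 lists.

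Markers of fat, outer heart lining, nerve and skeletal muscle were also followed. Adipocyte markers had a median of -0.42 and summed to 187 to 507 TPM in the ET-type hearts and 149 to 444 TPM in the L-type hearts, with the defining ADIPO, PLIN1 and LEP below the filter. Mesothelial markers had a median of 1.04 and summed to 8.83 to 20.0 TPM in the ET-type hearts and 3.85 to 5.25 TPM in the L-type hearts, without overlap, 3 of 7 measured, and WT1 differed by 1.32 ± 0.41. The 4 Schwann cell and nerve markers measured had a median of 0.77, and S100B had 102, 76.8, 109.8, 112 and 221 TPM in the ET-type hearts, against 74.2, 49.8, 33.0, 70.4 and 39.5 TPM in the L-type hearts (1.18 ± 0.30, adjusted p = 0.0842) without overlap. Of 16 skeletal muscle markers 5 were measured, with a median of 0.24 (-0.13 under median-ratio scaling), and 1 separated the types, calsequestrin-1, CASQ1, with 8.25, 7.04, 10.2, 11.7 and 12.8 TPM in the ET-type hearts, against 17.2, 20.7, 17.7, 15.4 and 20.2 TPM in the L-type hearts (-0.83 ± 0.19, adjusted p = 0.0812).

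**Figure D4:**
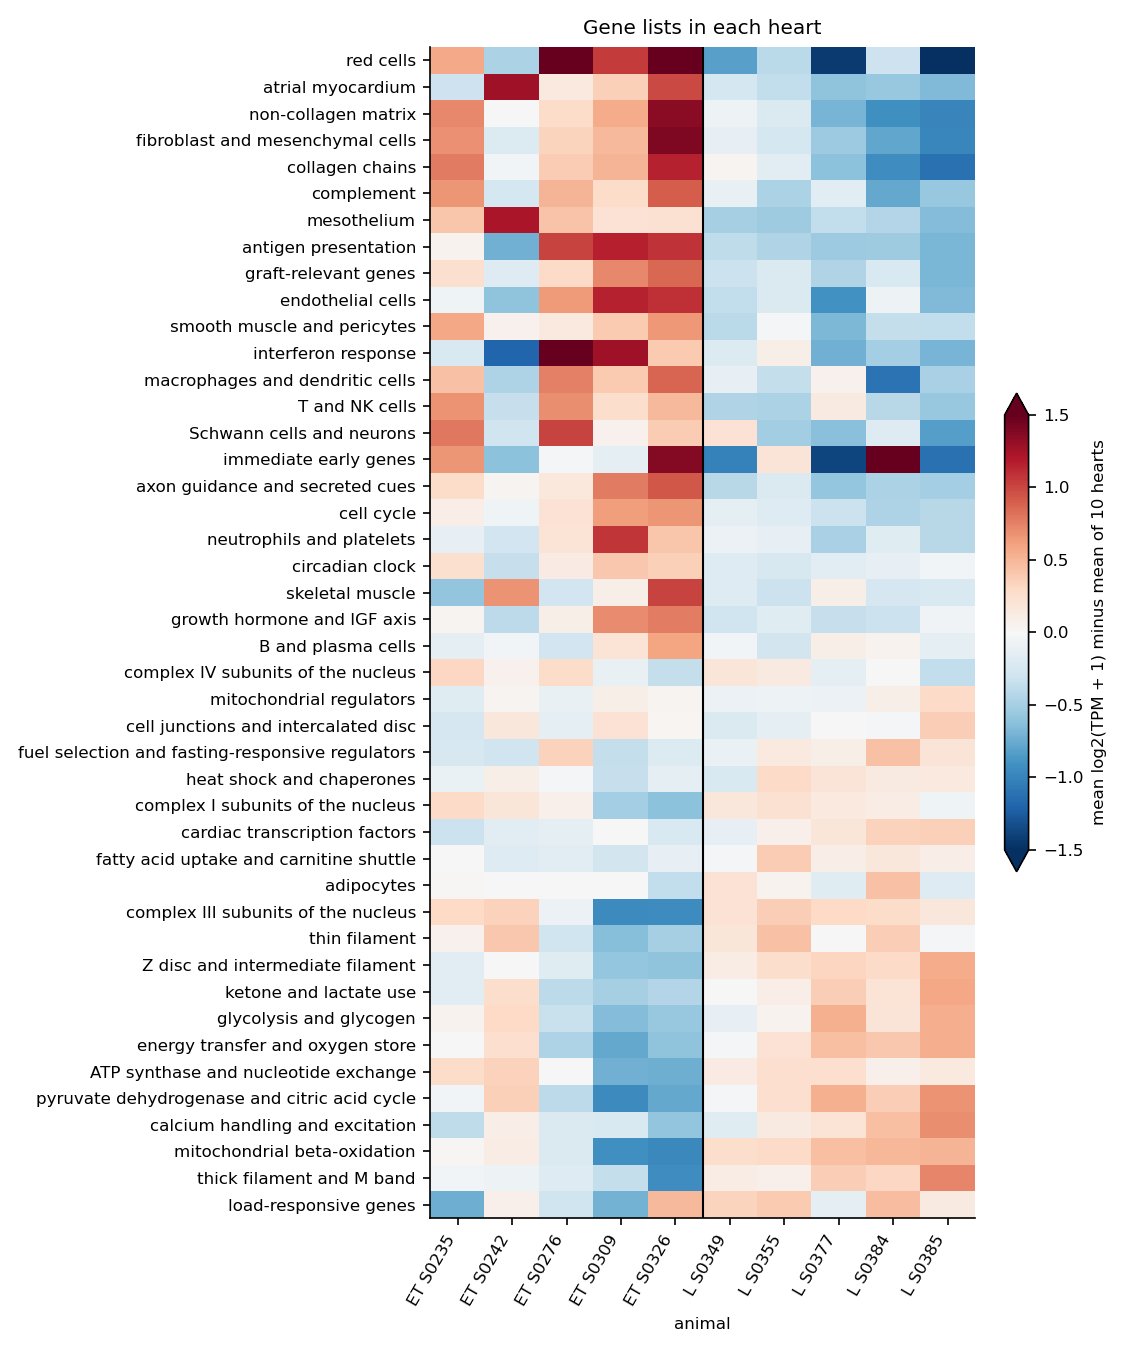
Mean log2(TPM + 1) of each gene list in each heart, minus the mean of the 10 hearts, as colour (blue lower, red higher), with the 5 ET-type animals in the left columns and the 5 L-type animals in the right. ET-type S0309 and S0326 are bluest for beta-oxidation, the citric acid cycle and complex III and red for matrix and vessel lists. ET-type S0242 is blue for interferon, antigen presentation and endothelial genes and red for atrial and mesothelial genes.

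Antigen presentation genes lay above 0 in all 15 members under both scalings, with a median of 0.99. Of the 15, only 1 was higher without overlap, against 7.32% of all entries. Beta-2-microglobulin, B2MG, the light chain of MHC class I, had 1633, 824, 2781, 3657 and 3539 TPM in the ET-type hearts, against 1059, 1014, 736, 840.4 and 665 TPM in the L-type hearts (1.35 ± 0.37, adjusted p = 0.0917). S0242 lay within the L-type range, and S0276, S0309 and S0326 lay far above it. The MHC class II alpha chain DRA showed the same pattern with 424, 251.6, 880.2, 926 and 1040.2 TPM in the ET-type hearts, against 264, 277, 234.6, 249 and 245 TPM in the L-type hearts (1.28 ± 0.35, adjusted p = 0.0895). The immunoproteasome subunit PSB10 was without overlap at 0.88 ± 0.20, and PSB9 was at 1.42 ± 0.38 with overlap. Interferon response genes, 25 measured, had a median of 0.87 and no separated member. Their sums were 731, 342, 4183, 2505 and 1159 TPM in the ET-type hearts, against 889, 1258, 617, 628 and 536 TPM in the L-type hearts, high in S0276 and S0309 and lowest of all 10 hearts in S0242. IRF1, an interferon-gamma responsive transcription factor, had 17.8, 9.17, 25.8, 36.9 and 37.7 TPM in the ET-type hearts, against 10.7, 9.11, 9.12, 7.81 and 8.90 TPM in the L-type hearts (1.24 ± 0.33, adjusted p = 0.0883).

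Complement genes had a median of 1.06 over 16 members, 4 of them higher without overlap, against 7.32% of all entries. Of the 16, 1 lay below 0, and 3 did under median-ratio scaling. CO3, the central component C3, had 151, 69.3, 96.3, 58.6 and 142 TPM in the ET-type hearts, against 45.6, 27.8, 32.4, 26.1 and 16.0 TPM in the L-type hearts (1.75 ± 0.32, adjusted p = 0.0812). CO7, a component of the membrane attack complex, differed by 1.46 ± 0.38 and the C1 inhibitor IC1 by 1.07 ± 0.28. The member below 0 was VTNC, vitronectin, an inhibitor of the membrane attack complex, with 21.95, 2.82, 22.9, 15.5 and 14.4 TPM in the ET-type hearts, against 31.0, 22.4, 28.5, 40.2 and 51.7 TPM in the L-type hearts (-1.30 ± 0.45, adjusted p = 0.133). Its groups overlapped, and S0242 was far below the other hearts. Pig hearts are studied as xenografts, and 13 genes of that field were measured, with a median of 0.93. ENTP1, the ectonucleotidase CD39 of endothelium, had 12.04, 10.9, 12.1, 20.3 and 18.8 TPM in the ET-type hearts, against 7.51, 6.16, 3.03, 4.36 and 3.88 TPM in the L-type hearts (1.41 ± 0.26, adjusted p = 0.0812). CMAH, which makes the sialic acid Neu5Gc that human antibodies recognise, had 2.74, 1.81, 4.74, 4.82 and 5.22 TPM in the ET-type hearts, against 1.05, 1.19, 1.27, 1.58 and 0.598 TPM in the L-type hearts (1.14 ± 0.27, adjusted p = 0.0812). The protein C receptor EPCR had 35.2, 35.5, 34.7, 48.6 and 88.6 TPM in the ET-type hearts, against 20.1, 26.99, 17.3, 17.6 and 8.98 TPM in the L-type hearts (1.34 ± 0.32, adjusted p = 0.082). These 3 were higher in every ET-type heart. Tissue factor, TF, which starts clotting, had 14.4, 11.8, 15.1, 15.2 and 13.4 TPM in the ET-type hearts, against 17.1, 23.7, 17.2, 64.9 and 21.0 TPM in the L-type hearts (-0.80 ± 0.32, adjusted p = 0.165), lower in every ET-type heart. GGTA1, which makes the alpha-gal antigen, differed by 0.81 ± 0.27 (adjusted p = 0.116).

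Growth hormone and IGF genes had a median of 0.23, equal to that of all genes to 2 decimals and -0.08 under median-ratio scaling, but some members stood out. IGF1, the growth factor, had 7.49, 2.62, 2.86, 5.71 and 7.69 TPM in the ET-type hearts, against 1.60, 1.32, 1.77, 1.17 and 0.541 TPM in the L-type hearts (1.39 ± 0.31, adjusted p = 0.0812). IBP6, an IGF2-binding protein, had 214, 90.2, 139, 198 and 388 TPM in the ET-type hearts, against 76.8, 59.1, 48.6, 52.7 and 57.0 TPM in the L-type hearts (1.64 ± 0.32, adjusted p = 0.0812). Both were without overlap. With overlap, IBP4 differed by 1.36 ± 0.35, IGF2 by 1.34 ± 0.37 and IBP7 by 0.98 ± 0.26, while the receptors IGF1R and GHR differed by -0.11 ± 0.30 and -0.26 ± 0.18.

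Cell cycle genes were in part under the filter, with 8 of 16 measured and a median of 0.64. Of the 8, 3 were higher without overlap, against 7.32% of all entries. The replication clamp PCNA had 21.9, 18.5, 22.9, 24.7 and 34.1 TPM in the ET-type hearts, against 18.3, 15.9, 15.6, 12.2 and 14.0 TPM in the L-type hearts (0.63 ± 0.19, adjusted p = 0.0984). The helicase subunit MCM6 differed by 0.69 ± 0.17, both without overlap, while KI67 and TOP2A were under the filter. Immediate early genes, which respond within minutes to handling of the tissue, had a median of 0.69 over 17 members with no separation, and summed to 1583, 1099, 1341, 1558 and 2210.2 TPM in the ET-type hearts, against 1142, 1727, 866, 3639 and 1191 TPM in the L-type hearts. The highest heart of all was L-type S0384. Clock genes had a median of 0.46 with no separation, and the smallest p was that of PER2 (0.96 ± 0.29, adjusted p = 0.1). Among heat shock proteins and chaperones the median was -0.26. The muscle small heat shock protein HSPB7 had 796, 884, 716, 450.2 and 448 TPM in the ET-type hearts, against 926, 1045, 1366, 1145 and 1152 TPM in the L-type hearts (-0.82 ± 0.22, adjusted p = 0.0886), lower in every ET-type heart, with HSPB6 at -1.03 ± 0.30. Junction genes of the intercalated disc had a median of -0.20, and besides CGNL1 none of the 13 separated. Axon guidance genes and secreted cues had a median of 0.66 over 7 members. LXN, latexin, a carboxypeptidase inhibitor, had 23.4, 17.7, 38.8, 67.7 and 74.4 TPM in the ET-type hearts, against 10.9, 10.2, 5.67, 6.01 and 4.52 TPM in the L-type hearts (2.28 ± 0.40, adjusted p = 0.0812), without overlap like SLIT2. The SLIT receptor ROBO2 differed by 0.66 ± 0.37 and SLIT3 by 0.27 ± 0.28.

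Whether the type difference in heart departed from that of the other tissues was tested within animals. The value tested was each animal's log2 value in heart minus its mean over kidney, liver, lung and spleen. Genes were kept by their mean in heart alone. A gene near 0 TPM in the other tissues can show little type difference there, so its departure nearly repeats its difference in heart. As scaled here 3263 of 24202 genes (13.5%) differed from the other tissues at an adjusted p below 0.05 in limma, 3142 with a more positive and 121 with a more negative type difference in heart. Under median-ratio scaling 33 of 24602 did (0.134%), 17 more positive and 16 more negative, so the count rests on how the tissues are put on 1 scale. Leaving out 1 animal gave 6295 genes without ET-type S0242 and 256 without L-type S0385, and under median-ratio scaling 1822 without ET-type S0242 and at most 7 without any other animal. The median type difference over all genes was 0.23 in heart. It was -0.28 in kidney (-0.22 without S0235) and -0.48 in spleen, with -0.01 for liver and -0.08 for lung. With kidney left out of the other tissues 2425 genes passed, and 3 under median-ratio scaling.

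Of the 10 entries with the smallest p for this departure, 5 in each direction, SCAR3, the sialyltransferase SIA4C, the thrombopoietin receptor TPOR, the lipase ABHD4 and KBTB4 passed under both scalings. SCAR3 had 10.9, 16.3, 16.3, 20.8 and 17.0 TPM in the ET-type hearts, against 7.86, 7.56, 6.09, 6.42 and 5.62 TPM in the L-type hearts, groups that did not overlap. Its type difference exceeded that of the other tissues by 1.69 (adjusted p = 0.00842), or by 1.19 under median-ratio scaling (adjusted p = 0.0456). SIA4C exceeded the other tissues by 1.61 (adjusted p = 0.0128) and by 1.06 (adjusted p = 0.0365) in the same order. TPOR had 1.64, 0.497, 4.32, 4.68 and 4.22 TPM in the ET-type hearts, against 11.04, 8.76, 8.56, 7.77 and 6.04 TPM in the L-type hearts, and its departure was -1.53 (adjusted p = 0.0164) and -1.93 under median-ratio scaling (adjusted p = 0.0187). ABHD4 departed by -1.14 and -1.70, and KBTB4 by -1.04 and -1.55. With kidney left out these 5 still passed on the rescaled TPM (adjusted p up to 0.0326), but none did under median-ratio scaling (adjusted p of 0.0552 to 0.0746). The remaining 5, the matrix protein SPRL1 at 2.17, the pericyte and fibroblast receptor PGFRB at 1.45, VIME at 1.98, KCNJ3 at -0.84 and the variant histone H2AY at -0.99, passed as scaled here. They had adjusted p values of 0.052, 0.0524, 0.0507, 0.0507 and 0.0507 under median-ratio scaling. For CGNL1 the type difference was 1.37 in heart and -0.99, -0.66, 0.08 and -0.19 in kidney, liver, lung and spleen. The kidney value rests on S0235, which had 2.74 TPM of CGNL1 against 50.3 to 104 TPM in the other ET-type kidneys, and without it was -0.15. The departure of 1.81 had an adjusted p of 0.0164, or 0.0669 under median-ratio scaling. With kidney left out it was 1.63 (adjusted p = 0.0303).

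**Figure D5:**
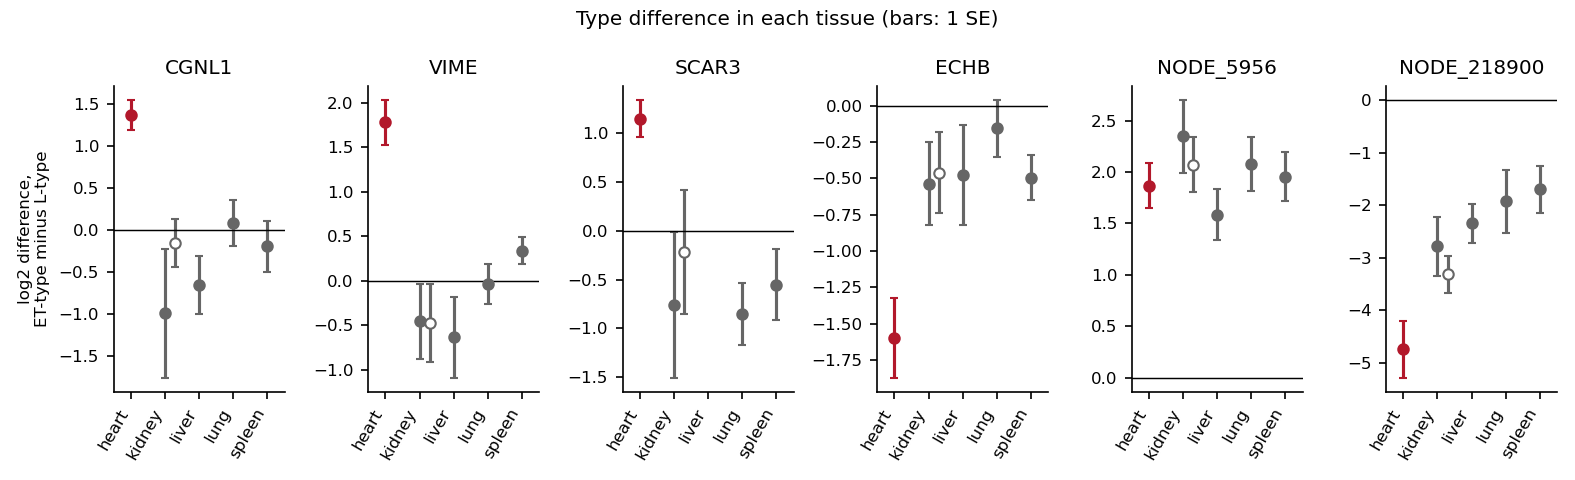
Log2 difference between ET-type and L-type animals (vertical axis, log2 of TPM + 1, zero line drawn) in each of 5 tissues for CGNL1, VIME, SCAR3, ECHB, NODE_5956 and NODE_218900, each filled point 1 tissue with 5 against 5 animals and bars of 1 standard error. CGNL1, VIME and SCAR3 have their highest point in heart, ECHB its lowest, and the 2 unmatched transcripts lie on the same side of zero in all 5 tissues. Open points give kidney without ET-type S0235 (4 against 5 animals), whose kidney library went against its label. SCAR3 has no point in liver, where its mean was under 1 TPM.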

How the data were processed

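Total RNA was extracted with TRIzol and made into stranded poly(A) libraries (TruSeq Stranded mRNA), per the labels' protocols. The authors deposited 1 table of TPM for 57085 assembled transcripts in 50 libraries, with a Swiss-Prot match for 63.9% of them. Trimmomatic 0.36, Salmon 1.10.0 and Sscrofa11.1 are named, without a role, in the submitters' processing notes, and the assembler is not given in the sources used here. Each column summed to 1000000, so TPM hold relative levels, and a gain in 1 abundant class lowers all others.

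TPM were summed per Swiss-Prot entry name, which merges paralogs matched to 1 entry, and transcripts without a match were kept as single genes. The 9 mitochondrial-genome entries found, of 13 protein entries looked for, were left out and the rest rescaled. Values of log2(TPM + 1) for genes that averaged 1 TPM or more over the 10 hearts were fitted with limma 3.58.1 in R 4.3.3 (lmFit, eBayes with trend), with Benjamini-Hochberg adjustment over all genes tested and a threshold of 0.05. A fold change on this scale understates that of low genes. Whole-library values were compared with exact two-sided permutation tests over animals (SciPy 1.17.1). The same fit was tested on simulated data for ET-type against L-type hearts over 24202 genes, where it recovered 26.0% of genes given a log2 change of 1 and 90.0% of those given 3, with 5.69% of calls false. Each simulated gene was drawn independently of the others, and few were given a change. In the hearts whole lists moved together by animal, so these rates need not hold for them. Replicates are animals, 5 of each type, and no animal is shared between the types, so numbers pair tissues of 1 animal and not ET-type with L-type animals.

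The 44 gene lists held 634 names, of which 601 were found and 539 passed the filter. The comparison, its members and the lists were chosen with earlier results of these data known, and lists are described by counts and medians with no test. Genes were named by rule: passing genes; the 10 entries with the smallest p in a direction with under 5 passing entries; up to 4 members of each list by smallest p, and further members by their role; 4 marker genes; and 5 entries in each direction by smallest p of the departure from the other tissues. Alternatives varied the scaling, the pseudocount, the filter, the gene definition, the variance model and the animals. 1 gene is not reported here.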

Additional observations from a re-analysis of the deposited data

Results flagged for a closer look

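In some genes 1 heart lay far from the other 4 of its type, with a gap to its neighbour of over 0.71 of the range. This was so in 17 of 338 groups examined, where chance gives about 1 in 20. Among ET-type hearts, S0242 was high for ACSL1 at 237 TPM and low for NODE_95281 at 1.64 TPM and VTNC at 2.82 TPM. S0326 was low for KCNJ3 at 13.1 TPM and for PAFA at 61.0 TPM. S0276 was high for PDK4 at 226 TPM, and S0235 was high for NODE_218900 at 5.39 TPM. Among L-type hearts, S0384 was high for HAND2 at 254 TPM, TF at 64.9 TPM and TNNT2 at 13863 TPM, and S0385 was high for P2RX5 at 103 TPM. S0349 was high for PER2 at 1.99 TPM and alone above 0 for LEP at 0.0196 TPM, and S0355 was high for KI67 at 0.392 TPM. S0377 was low for CXA5 at 3.22 TPM and PGS1 at 13.1 TPM and alone above 0 for NODE_95281 at 0.137 TPM.

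The type difference in heart departed from the mean of the other 4 tissues at an adjusted p below 0.05 (limma) in 72 of the 160 named genes tested (45.0%), where 13.5% of all genes passed, or 0.134% under median-ratio scaling. Of the 72, 10 were named for their small p in this same comparison, and many others for a small p in heart, so the share says nothing about the genes as a set. With kidney left out, where the ET-type S0235 library went against its label, 61 of the 72 still passed and none changed direction. Each value that follows is the log2 difference in heart minus that mean. Of these genes, 10 also passed under median-ratio scaling: ENTP1 at 1.85, MUCEN at 1.99, RGS5 at 1.63, SCAR3 at 1.69, SIA4C at 1.61, TPOR at -1.53, ABHD4 at -1.14, KBTB4 at -1.04, CASQ1 at -1.02 and NODE_218900 at -2.55. The remaining ones passed on the rescaled TPM but not under median-ratio scaling, where none changed direction. With kidney left out, NODE_218900 alone of the 10 passed under both scalings. Its type difference was negative in every tissue, at -4.73 in heart and -2.78, -2.35, -1.92 and -1.70 in kidney, liver, lung and spleen. Its departure is thus one of size and not of direction.

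Matrix and fibroblast genes with a positive departure were POSTN at 2.31, THY1 at 2.40, SPRL1 at 2.17, FMOD at 1.98, VIME at 1.98, MGP at 1.89, FINC at 1.89, SPRC at 1.80, CO3A1 at 1.71, SEPR at 1.62, TCF21 at 1.53, CO5A2 at 1.52, COFA1 at 1.45, CO1A2 at 1.44, COEA1 at 1.35, TIMP1 at 1.30 and PGS1 at 1.18. Vessel genes were TRBM at 1.98, EPCR at 1.97, CXA5 at 1.53, PECA1 at 1.52, COT2 at 1.46, PGFRB at 1.45 and ACTA at 1.39. Of these, CXA5 and COT2 were listed above as genes of atrial muscle, as were MYL4 and KCNJ3, given below. Secreted cues and IGF genes were APOD at 2.32, LXN at 2.17, IGF2 at 1.91, SLIT2 at 1.89, IBP6 at 1.85, IBP4 at 1.68 and IBP7 at 1.102.

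Blood, complement and antigen presentation genes with a positive departure were HBB at 2.11, CO7 at 2.002, CO3 at 1.63, PSB9 at 1.43, B2MG at 1.35, AIF1 at 1.21, IRF1 at 1.15 and PSB10 at 0.75. Further genes were MYL4 at 3.11, CGNL1 at 1.81, FRRS1 at 1.72, CMAH at 1.38, GFRA3 at 1.38, S100B at 1.19, ENOA at 1.07, PER2 at 1.07, TBB6 at 1.03, CPT1A at 0.997, ADT2 at 0.96 and CX6A1 at 0.86. Negative departures were those of DHRS4 at -2.15, NKX25 at -1.24, ECHB at -1.18, ANKR1 at -1.07, LMOD2 at -1.07, NDUS6 at -1.03, H2AY at -0.99, COX5A at -0.97, IDHP at -0.89, KCNJ3 at -0.84 and PAFA at -0.74. Which of the genes with a departure, positive or negative, lie near 0 TPM in the other tissues is not given here. For such genes the departure nearly repeats the difference in heart.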

How the results depend on the processing

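The count of genes called in heart depended on most settings. Median-ratio scaling and quantile normalization each gave 7 genes, a minimum mean of 5 TPM 1, array weights 25, and a pseudocount of 0.1 gave 0 in limma (5600 at an unadjusted p below 0.05). Entries alone gave 1369, and, chosen after seeing the data, 570 under median-ratio scaling and 422 under quantile normalization. Leaving out 1 animal gave between 0 (without ET-type S0276 or S0326, or L-type S0355, S0377 or S0384, with 3778 to 4990 genes at an unadjusted p below 0.05) and 3289 (without ET-type S0242), with 2 without L-type S0385 and 8 without S0349. Without S0242 the count was 2164 under median-ratio scaling, 4121 over entries alone and 3369 over entries alone under median-ratio scaling, and the other entries-only fits without 1 animal gave 0 to 1311 (77 without S0276, 1141 without S0349 and 451 without S0355). With all 50 libraries and the animal as a replicate block, which pairs tissues and not types, 1326 genes were called in heart (consensus correlation 0.124) and 3253 for the departure from other tissues. That departure gave 33 genes under median-ratio scaling and 1399 with spleen left out, 3 with kidney left out under median-ratio scaling (chosen after seeing the data), 256 to 6295 without 1 animal, and 1 to 1822 without 1 animal under median-ratio scaling. Without 1 animal the mitochondrial share differed by 4.82 (without ET-type S0309) to 8.41 percentage points without ET-type S0242 (exact two-sided permutation p = 0.0476). Of 160 named genes tested 7 changed sign in at least 1 alternative, and of 44 list medians 4 changed sign under another scaling. The cause of these shifts was not tested. Read depth is unknown, and with 5 animals a type and 1 library each, a change carried by 1 animal cannot be told apart from a change of the type.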
